A study of Arabidopsis thaliana with 2 samples.

Results

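MYB transcription factors were compared between wild-type (Col-0) and bts-1 shoots of Arabidopsis thaliana. A gene was counted as a member when its description in the deposited table contained "myb domain protein" or "transcription factor MYB" in any case, together with PAP1 (AT1G56650, MYB75). The rule found 52 of 18615 genes that carry a symbol. It also took in AT2G44730 and AT3G24490, which are described as alcohol dehydrogenase transcription factors of a myb/SANT-like type and share the wording rather than a MYB number. Total RNA came from seedling shoots on Murashige and Skoog medium at 0.5 times strength without sucrose, the same for both genotypes, and was sequenced with a directional kit. BTS (BRUTUS) is an E3 ubiquitin ligase that restrains the iron deficiency response, and the series asks how its loss relates to cellular energy and to organellar gene expression. The lesion in bts-1, the age of the seedlings and the number of plants per library are not given in the sources used here.

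MYB proteins bind DNA through repeats of a helix-turn-helix domain and form one of the largest families of plant transcription factors. In leaves and seedlings different members control glucosinolates, flavonoids and other phenylpropanoids, the cuticle, guard cells, cell walls and the responses to abscisic acid and stress. Several act in complexes with bHLH proteins, and some are repressors of the same pathways that their relatives activate.

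With 1 library per genotype there is no replicate error and no test, and each difference compares 2 libraries. Levels are log2(FPKM + 1), where FPKM counts sequenced fragments relative to transcript length and library size, and log2 ratios were taken as bts-1 minus Col-0. Read depth is unknown, since the table holds no counts. BTS itself (AT3G18290) stood at 10.84 in Col-0 and 9.57 in bts-1, a log2 ratio of -1.27. The leaf markers RBCS1A, CAB1, LHCB2.2 and GLK2 were all present, with levels of 6.82 to 12.41 in Col-0 and 7.11 to 12.17 in bts-1. No row was found here for the 3 seed markers, for 3 of 4 flower markers or for 3 of 6 root markers. The other root markers had rows, with PYK10 (AT3G09260) at 10.06 in Col-0 and 10.19 in bts-1, PHT1;1 at 2.22 and 2.78 and CASP1 at 0.91 and 1.33. The flower gene PI stood at 1.40 and 0.85. The table holds no gene under 0.85 in Col-0 and under 1 in bts-1, so a missing row does not show absence of a tissue. On chromosome 3 the listed level fell with the exon length of the following gene, with a slope of -0.58 (SE 0.03) in Col-0, against slopes of -0.02 to 0.04 on the other chromosomes. The levels of genes on chromosome 3, whose identifiers begin with AT3G, are therefore uncertain. This concerns 14 members, BTS and named genes outside the family, among them the root marker PYK10 and the guard cell marker FAMA. A length factor shared by both libraries enters their ratios only through the added 1 and the normalization between libraries. With chromosome 3 values rescaled by exon lengths, BTS stood at 6.63 and 5.38, a log2 ratio of -1.25.

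The 4 closely related stress and hormone genes MYB44, MYB73, MYB70 and MYB77 were the 4 most abundant members in Col-0. All 4 were lower in bts-1, 3 of them at least 2-fold. Over all genes that reached an FPKM of 1, 45.1% had negative ratios and 3.63% were at least 2-fold lower. The group was set apart with its low ratios known, so its counts cannot be weighed against those shares. MYB44 (AT5G67300, listed as MYBR1), which acts in abscisic acid signalling and stomatal closure, stood at 6.77 in Col-0 and 5.65 in bts-1, a log2 ratio of -1.12. MYB73 (AT4G37260), which acts in the salt stress response, stood at 6.12 and 4.92, a log2 ratio of -1.20. MYB77 (AT3G50060), which modulates auxin responses in lateral root growth, stood at 5.24 and 3.51, a log2 ratio of -1.73 and the lowest of all 52 members. MYB77 lies on chromosome 3, and with its values rescaled by exon length it stood at 4.99 and 3.28, with a log2 ratio of -1.71; at that level it falls below MYB28 in Col-0, at 5.22. MYB70 (AT2G23290) stood at 5.77 and 4.84, a log2 ratio of -0.94, just outside the 2-fold limit. On the FPKM scale these genes were 2.2-fold (MYB44), 2.34-fold (MYB73), 3.54-fold (MYB77) and 1.95-fold (MYB70) lower in bts-1. In shoots, fewer cells that express a gene and less RNA per cell cannot be told apart.

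The sum over these 4 genes was 267 FPKM in Col-0 and 117 FPKM in bts-1, whereas the other 48 members together summed to 402 and 384 FPKM. The group thus held 39.9% of the summed FPKM of all members in Col-0 and 23.3% in bts-1. Since it was set apart with its low ratios known, its smaller share in bts-1 follows from that choice and is no separate result. Without chromosome 3 genes, which leaves MYB44, MYB73 and MYB70 in the group, the shares were 42.6% and 26.3%. MYB44 remained the most abundant member in both libraries, while MYB77 had rank 4 by level in Col-0 and rank 15 in bts-1.

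**Figure D1:**
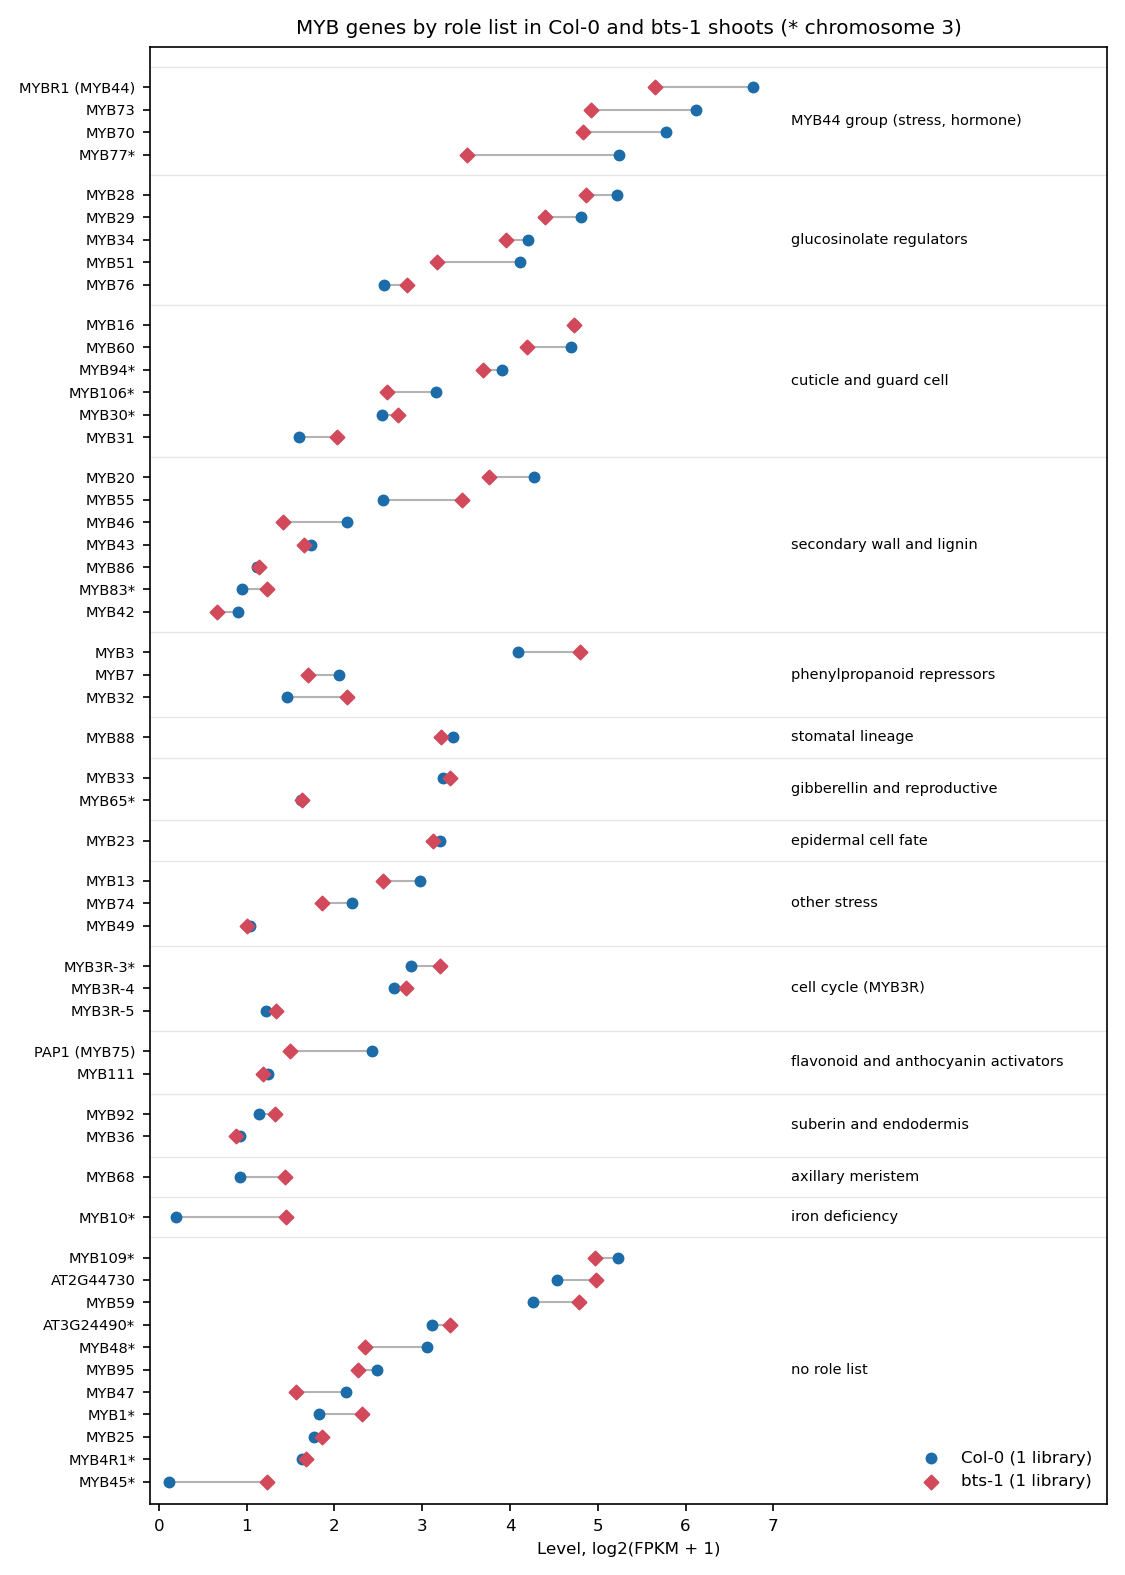
Level of each of the 52 MYB members in log2(FPKM + 1), grouped by role list; blue circles are the Col-0 library, red diamonds the bts-1 library, and an asterisk marks chromosome 3. The 4 genes of the MYB44 group lie at the top of the scale, with Col-0 levels of 5.24 to 6.77, and each has its bts-1 point to the left.

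Of the 50 members that reached an FPKM of 1 in at least 1 library, 3 were at least 2-fold lower in bts-1 (MYB77, MYB73 and MYB44) and 2 were at least 2-fold higher (MYB10 and MYB45). MYB42 and MYB36 stayed below that level in both libraries, and MYB10, MYB45, MYB68 and MYB83 reached it in bts-1 only. Of all 18510 genes that reached it, 3.63% were at least 2-fold lower and 1.92% at least 2-fold higher, and members at these counts are too few to be set apart from those shares. The median log2 ratio was -0.05 over these members and 0.04 over all genes. At a limit of 1.5-fold, 8 members were lower against 9.32% of all genes, and 5 were higher against 7.53%. Negative ratios were found for 27 of the 50 members and for 45.1% of all genes. Outside the MYB44 group, which was set apart with its low ratios known, 46 members reached an FPKM of 1. They had 23 positive and 23 negative ratios and a median of 0.01. MYB10, MYB45, MYB68 and MYB83 are among these 46 through bts-1 alone, so the filter favours positive ratios. Without the filter, the 48 members outside the group had 23 positive and 25 negative ratios and a median of -0.02. The members nearest to the 2-fold limit on the inside were MYB44 on the lower side and MYB45, with a log2 ratio of 1.11, on the higher side. Just outside lay MYB51 at -0.94 and MYB55 at 0.90.

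**Figure D2:**
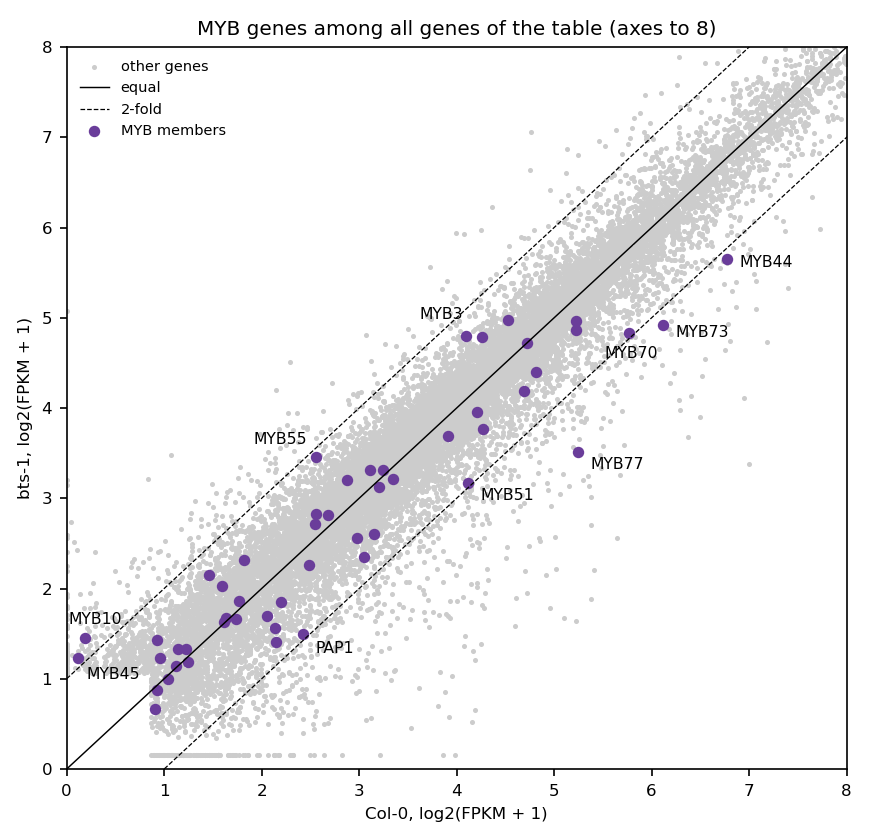
Level in bts-1 against level in Col-0, both in log2(FPKM + 1), for MYB members (purple) and the other genes of the table (grey); the solid line marks equal levels and the dashed lines a 2-fold difference on this scale, and axes end at 8. MYB77, MYB73 and MYB44 lie below the lower dashed line, and MYB10 and MYB45 lie above the upper one at the low end, where the table holds no gene low in both libraries.

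**Figure D3:**
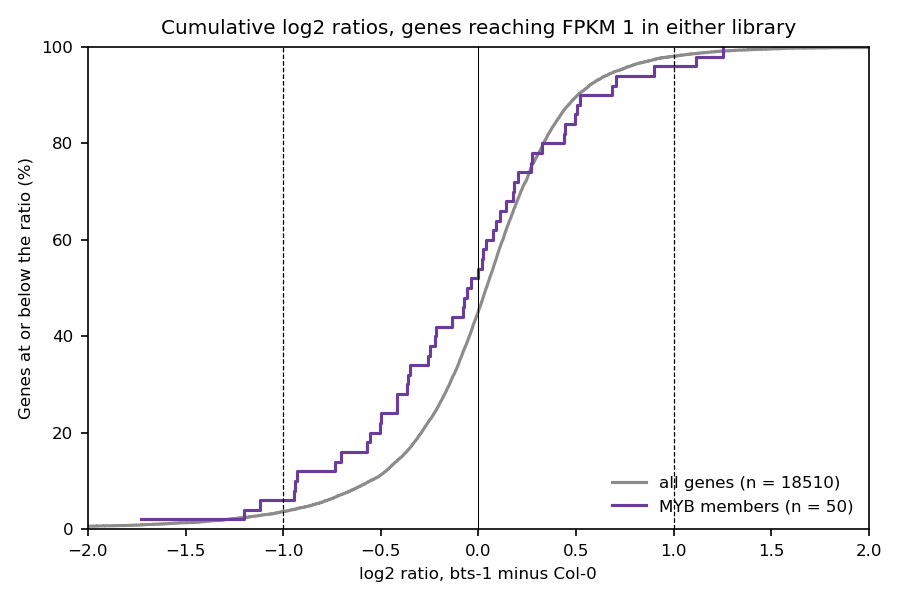
Cumulative share of genes in percent against the log2 ratio (bts-1 minus Col-0) for the 50 MYB members and all 18510 genes that reached an FPKM of 1; dashed lines mark a 2-fold difference. The MYB line runs above that of all genes at negative ratios down to just below the lower dashed line, and the medians are -0.05 and 0.04.

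Among the MYB regulators of glucosinolates, the sulfur-rich defence compounds of this plant order, 4 of 5 were lower in bts-1 and none passed 2-fold (median log2 ratio -0.36). The share of negative ratios over all genes that reached an FPKM of 1 was 45.1%, and 5 genes are too few to be set apart from it. MYB51 (AT1G18570), which activates indolic glucosinolate synthesis in defence, stood at 4.11 in Col-0 and 3.17 in bts-1, a log2 ratio of -0.94. Its place just under 2-fold depends on the added 1, since it was 2.04-fold lower on the FPKM scale and had a log2 ratio of -1.02 with a pseudocount of 0.1. MYB34 (AT5G60890), which drives the same branch, stood at 4.21 and 3.96. The aliphatic branch is controlled by 3 other members. MYB28 (AT5G61420), its main activator, stood at 5.22 and 4.86, and MYB29 (AT5G07690) at 4.81 and 4.40. MYB76 (AT5G07700), the neighbour of MYB29 by identifier, stood at 2.56 and 2.83 and was the 1 regulator of the group with a higher level in bts-1.

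The enzymes of both branches, in lists chosen with earlier results of these data known, had no gene past 2-fold. Over all genes that reached an FPKM of 1, 3.63% were at least 2-fold lower and 45.1% had negative ratios. Of 6 indolic and shared core enzymes, 5 had negative ratios (median -0.40), with UGT74B1 (AT1G24100), which adds the glucose, at 6.22 and 5.25, and the sulfotransferase gene SOT16 (AT1G74100) at 6.26 and 5.52. Of 7 aliphatic enzymes, 3 had negative ratios (median 0.07). SOT17 (AT1G18590) and SOT18 (AT1G74090), the sulfotransferases of the last step, had the largest, at -0.74 and -0.68. MYC2 (AT1G32640), a jasmonate-responsive bHLH protein that works with these MYB factors, stood at 5.50 and 3.89. In contrast, its relatives MYC3 (AT5G46760) and MYC4 (AT4G17880) had log2 ratios of -0.09 and -0.27.

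PAP1 (AT1G56650), an activator of anthocyanin synthesis that responds to sugar and light, stood at 2.42 in Col-0 and 1.49 in bts-1. This was a log2 ratio of -0.93, or 4.37 against 1.81 FPKM, which is 2.41-fold lower on the FPKM scale. The gap between these scales shows how the added 1 compresses ratios of low genes. MYB111 (AT5G49330), an activator of flavonol synthesis, had 1.24 and 1.19 and thus nearly the same level in both libraries. No row was found here for the other 7 activators of the list, among them MYB90 (PAP2), MYB12 and MYB123 (TT2).

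The repressors of the phenylpropanoid pathway went in both directions. MYB3 (AT1G22640) stood at 4.09 in Col-0 and 4.80 in bts-1, a log2 ratio of 0.71, and MYB32 (AT4G34990) at 1.46 and 2.15, a log2 ratio of 0.69. These were 1.67-fold and 1.96-fold higher on the FPKM scale. MYB7 (AT2G16720), a close relative of MYB32, had a lower level in bts-1, at 2.06 and 1.70. Further repressors lie outside the description rule. Of these MYBL2 (AT1G71030), an inhibitor of anthocyanin synthesis, stood at 6.34 and 6.73, MYB4 (AT4G38620) at 3.03 and 2.94, and MYB6 (AT4G09460) at 3.87 and 3.81.

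Flavonoid enzyme genes were lower in bts-1 for 9 of 10 list members, against 45.1% of all genes that reached an FPKM of 1. Where 3.63% of all genes were at least 2-fold lower, the list had 1 gene past 2-fold on the log2(FPKM + 1) scale and a median log2 ratio of -0.73. That gene, AT4G14090 (UGT75C1), encodes an anthocyanin glucosyltransferase and stood at 2.82 and 1.63. Chalcone isomerase (TT5, AT3G55120), an early enzyme of the pathway on chromosome 3, had a log2 ratio of -0.99. It was -1.07 after the exon length rescaling, which makes 2 genes past 2-fold. F3H (AT3G51240), also on chromosome 3, had a log2 ratio of -0.97. On the FPKM scale both were more than 2-fold lower, at 10.7 and 4.90 FPKM for TT5 and 37.0 and 18.4 FPKM for F3H. The share of all genes was not counted on that scale. DFR (AT5G42800), which opens the anthocyanin branch and is named here for its value, was the exception, at 4.51 and 4.71. Of the partners of PAP1 in its activator complex, EGL3 (AT1G63650) stood at 2.08 and 1.70 and TTG1 (AT5G24520) at 5.20 and 5.49, while no row was found here for TT8 and GL3.

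Among 7 MYB genes of secondary walls and lignin, 4 had negative and 3 positive ratios (median -0.08). Over all genes that reached an FPKM of 1, 45.1% had negative ratios, and 7 genes are too few to be set apart from that share. MYB46 (AT5G12870), a master switch of secondary wall formation, stood at 2.15 in Col-0 and 1.41 in bts-1. This was a log2 ratio of -0.74, or 2.07-fold lower on the FPKM scale. MYB83 (AT3G08500), which acts redundantly with MYB46, stood at 0.95 and 1.23, equal to 0.94 and 1.34 FPKM. Its ratio thus had the opposite sign to that of MYB46. However, MYB83 lies on chromosome 3 and reached an FPKM of 1 in bts-1 only, so no contrast of the pair is drawn from it. MYB20 (AT1G66230), an activator of lignin and phenylalanine synthesis, stood at 4.27 and 3.76. Its relatives MYB43 (AT5G16600) and MYB42 (AT4G12350) were low in both libraries, at 1.74 and 1.66 for MYB43 and 0.90 and 0.66 for MYB42. MYB55 (AT4G01680) had the highest ratio of all members above an FPKM of 1 in both libraries, at 2.56 and 3.46. On the FPKM scale it was 2.05-fold higher in bts-1. MYB86 (AT5G26660) stood at 1.12 and 1.14.

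All 10 phenylpropanoid and lignin enzymes had negative ratios, with a median of -0.43 and 0 genes past 2-fold. Of all genes that reached an FPKM of 1, 45.1% had negative ratios and 3.63% were at least 2-fold lower. Both this list and the flavonoid list were chosen with earlier results of these data known. CAD5 (AT4G34230), which makes lignin alcohols, stood at 5.52 and 4.57, and PAL1 (AT2G37040), the entry enzyme, at 6.89 and 6.09. The xylem markers did not share a direction, with IRX3 (AT5G17420), a cellulose synthase subunit of secondary walls, at 3.02 and 3.47 and VND7 (AT1G71930), a regulator of vessel formation, at 1.71 and 1.28. Their summed FPKM was 9.40 in Col-0 and 11.5 in bts-1, and their part in the MYB ratios was not tested.

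**Figure D4:**
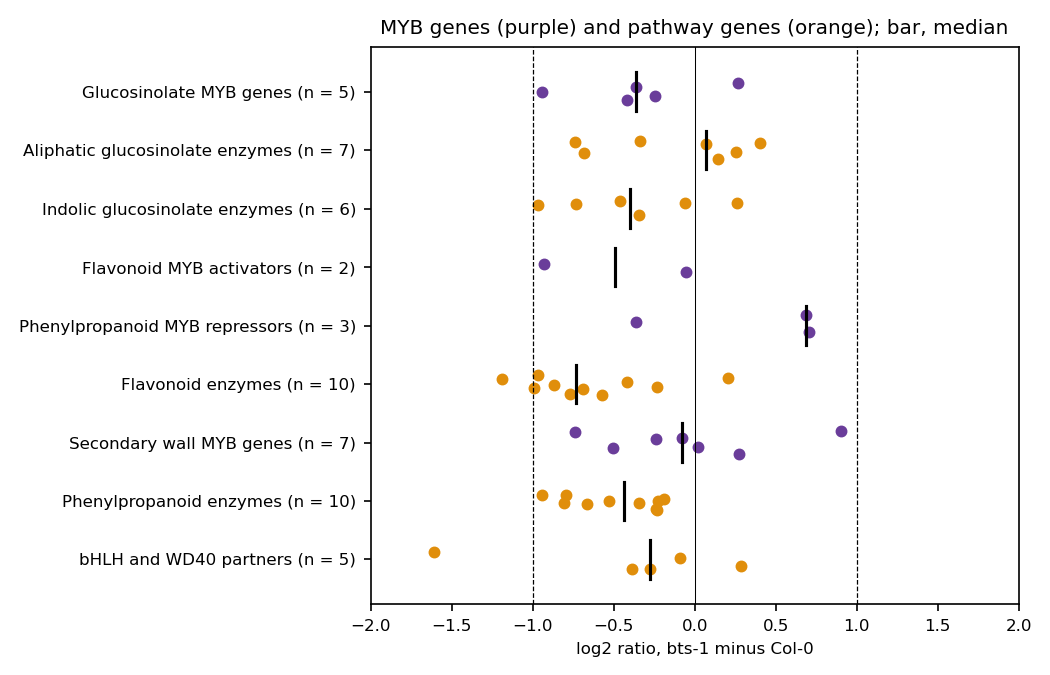
Log2 ratios (bts-1 minus Col-0) of MYB members (purple) and of listed enzyme and partner genes (orange), with 1 point per gene, vertical bars at the median of each list and dashed lines at a 2-fold difference. Flavonoid and phenylpropanoid enzymes lie mostly left of 0, with medians of -0.73 and -0.43, while the repressor members lie on both sides, MYB3 and MYB32 at 0.71 and 0.69 and MYB7 at -0.36.

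MYB genes of the cuticle and guard cells had 4 negative and 2 positive ratios (median -0.11), none past 2-fold. Of all genes that reached an FPKM of 1, 45.1% had negative ratios and 3.63% were at least 2-fold lower. These 6 genes are too few to be set apart from those shares. MYB60 (AT1G08810), which promotes stomatal opening and is expressed in guard cells, stood at 4.69 in Col-0 and 4.19 in bts-1. The guard cell markers FAMA (AT3G24140) and KAT1 (AT5G46240) were higher instead, at 4.02 and 4.37 for FAMA and 4.26 and 4.39 for KAT1. Their summed FPKM was 33.4 in Col-0 and 39.6 in bts-1. FAMA lies on chromosome 3 and stood at 3.50 and 3.84 after the exon length rescaling, so this sum is uncertain. The part of these markers in the MYB60 level was not tested. Among the cuticle regulators, MYB106 (AT3G01140) stood at 3.16 and 2.60, whereas its close relative MYB16 (AT5G15310) was at 4.73 and 4.72. The MYB106 ratio of -0.55 was -0.21 after the exon length rescaling of chromosome 3, which puts its level much lower, at 0.69 and 0.48. MYB94 (AT3G47600), an activator of wax synthesis, had a log2 ratio of -0.22, and its partner MYB96 (AT5G62470), outside the description rule, of -0.39. MYB31 (AT1G74650) stood at 1.60 and 2.03, and MYB30 (AT3G28910), which promotes hypersensitive cell death, at 2.54 and 2.72.

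The other stress factors of the list, MYB13 (AT1G06180), MYB74 (AT4G05100) and MYB49 (AT5G54230), were all lower by less than 2-fold. Negative ratios were found for 45.1% of all genes that reached an FPKM of 1, and 3 genes are too few to be set apart from that share. MYB13 stood at 2.98 in Col-0 and 2.56 in bts-1, and MYB49 at 1.04 and 1.00. MYB74 had a log2 ratio of -0.35, with 3.61 and 2.62 FPKM. No row was found here for MYB14, MYB15, MYB41 and MYB102, nor for 5 of 6 genes around MYB2 and MYB108. MYB62 (AT1G68320), a phosphate starvation factor and the remaining gene of that set, lies outside the description rule and stood at 1.27 and 1.04.

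The MYB3R genes, which time the expression of mitotic genes, were slightly higher in bts-1 for all 3 members. Since 45.1% of all genes that reached an FPKM of 1 had negative ratios, 3 genes are too few to be set apart from the rest. MYB3R-3 (AT3G09370), a repressor outside mitosis, stood at 2.88 and 3.20, MYB3R-4 (AT5G11510), an activator, at 2.68 and 2.82, and MYB3R-5 (AT5G02320) at 1.23 and 1.33. MYB3R-1 (AT4G32730), outside the description rule, had a log2 ratio of -0.11, and no direction of this class is drawn from these small differences. MYB33 (AT5G06100) and MYB65 (AT3G11440), gibberellin-related factors targeted by a microRNA, had log2 ratios of 0.08 and 0.02, MYB88 (AT2G02820), which limits divisions in the stomatal lineage, of -0.14, and MYB23 (AT5G40330), a trichome factor, of -0.07.

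MYB10 (AT3G12820), which acts with MYB72 in the response to iron deficiency, stood at 0.19 in Col-0 and 1.45 in bts-1, equal to 0.14 and 1.73 FPKM. MYB45 (AT3G48920) stood at 0.12 and 1.23, equal to 0.09 and 1.35 FPKM. These were the 2 members at least 2-fold higher, and also the 2 lowest in Col-0. In the deposited table every one of the 418 genes with a Col-0 level under 0.85 had a bts-1 level of at least 1.06, so a member that low in Col-0 could appear only with a higher value in bts-1. Both also lie on chromosome 3, and after rescaling their log2 ratios were 1.05 and 0.85. No row was found here for MYB72.

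A few root-related members were near the low end as well. MYB68 (AT5G65790), expressed in root tissue and the 1 member of the axillary meristem, boundary and leaf polarity list, stood at 0.93 and 1.44, a log2 ratio of 0.51, MYB92 (AT5G10280), an activator of suberin synthesis, at 1.14 and 1.33, and MYB36 (AT5G57620), which directs Casparian strip formation, at 0.92 and 0.88. The 3 root markers with a row, of 6 listed, were all higher in bts-1, with CASP1 (AT2G36100) at 0.91 and 1.33, PHT1;1 (AT5G43350) at 2.22 and 2.78 and PYK10 (AT3G09260) at 10.06 and 10.19. Their summed FPKM, nearly all from PYK10, was 1069 in Col-0 and 1175 in bts-1. PYK10 lies on chromosome 3 and stood at 9.65 and 9.78 after the exon length rescaling, so this sum is uncertain. MYB36, with a log2 ratio of -0.05, did not share the direction of the markers. CASP1 (0.88 and 1.51 FPKM), MYB68 and MYB10 reached an FPKM of 1 in bts-1 only. The part of root tissue in the levels of MYB10, MYB68, MYB92 and MYB36 was not tested.

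The remaining members fall in no role list. MYB59 (AT5G59780) and its close relative MYB48 (AT3G46130) had ratios of opposite sign, at 4.27 in Col-0 and 4.79 in bts-1 for MYB59 and 3.05 and 2.35 for MYB48. The related genes MYB1 (AT3G09230), MYB25 (AT2G39880) and MYB109 (AT3G55730) had log2 ratios of 0.49, 0.09 and -0.26. MYB109 had a listed Col-0 level of 5.23, the fifth of all members, but of 2.22 after the exon length rescaling. MYB47 (AT1G18710) stood at 2.14 and 1.57, MYB95 (AT1G74430) at 2.49 and 2.26, and MYB4R1 (AT3G18100) at 1.64 and 1.68. The members of the myb/SANT-like type were both higher, AT2G44730 at 4.53 and 4.98 and AT3G24490 at 3.11 and 3.31.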

How the data were processed

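The deposited table gives normalized FPKM for 1 Col-0 and 1 bts-1 library in 18617 rows, and its values were read as log2(FPKM + 1). The build TAIR10 and, in no stated order, HTSeq 0.9.1, TopHat2 2.1.0, Bowtie, cutadapt 1.12 and CASAVA 1.8.2 were used per the submitters' processing notes. After sorting, 99.1% of ranks held the same value in both columns to within 0.001, as quantile normalization would give, so ratios are relative to the other genes. The 2 rows without a symbol were left out.

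The log2 ratio was the difference between the columns. Depth is unknown, no interval can be given, and no test was run. Genes that reached an FPKM of 1 in at least 1 library were counted at a limit of 2-fold. Members, role lists and pathway lists were chosen with earlier results of these data known. The 15 role lists hold 106 MYB names, of which 41 are members, 12 have rows outside the description rule and 53 were not matched to a row. All members with a ratio past 2-fold, PAP1, the 5 highest, those nearest the limit, up to 4 of each role list and 2 of each pathway list were to be named; the other members are named to account for all 52, and further list genes were chosen after their values were seen. The linear FPKM with a pseudocount of 1 foreseen in the design is already inside the deposited values.

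Exon lengths and identifier order came from the TAIR10.1 annotation, which differs by name from the build of the files, so no coordinates or sequences are given. For the rescaling, chosen after the data were seen, the FPKM of each chromosome 3 gene was scaled by the ratio of the following gene's exon length to its own, leaving lncRNA and antisense genes out of the order. The counting was tested on simulated data. Python 3.11.15, pandas 2.3.3, numpy 2.4.6 and matplotlib 3.10.9 were used.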

Additional observations from a re-analysis of the deposited data

How the results depend on the processing

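The count of members at least 2-fold lower was 3 of 50, where 3.63% of all genes were lower. It was 3 of 50 under the nuclear median centring (3.93% of all genes) and 3 of 48 after the rescaling of chromosome 3 (3.64%). With a pseudocount of 5 it was 3 of 50 against 1.37%, and with a minimum FPKM of 5 it was 3 of 28 against 3.28%. Without the filter it was 3 of 52 against 3.61%, and without genes at the lowest value 3 of 50 against 3.20%. Without chromosome 3 genes, which removes MYB77, it was 2 of 36 against 3.66%. The counts are too few to be set apart from these shares. It was 6 of 50 with a pseudocount of 0.1, 8 at a limit of 1.5-fold and 1 at a limit of 3-fold, where 5.39%, 9.32% and 1.15% of all genes were lower. The count at least 2-fold higher was 2 and became 0 with a minimum FPKM of 5, with a pseudocount of 5, at a limit of 3-fold or without chromosome 3 genes. It was 1 after the rescaling of chromosome 3 and 5 at a limit of 1.5-fold. The shares of all genes that were higher in these settings were 1.40%, 0.55%, 0.27%, 1.98%, 1.84% and 7.53%, in the same order. With a pseudocount of 0.1 the count was 3, as MYB55 passed at 1.02, where 3.97% of all genes were higher. The median log2 ratio of -0.05 was -0.23 over the 28 members that reached an FPKM of 5, where the median of all genes was 0.04, and differed by at most 0.1 under the other alternatives. No paired analysis was possible because each genotype has 1 library, and no library could be left out. The rescaling and leaving out the 2 myb/SANT-like members were chosen after the data were seen.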

Other observations

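The 14 members with a mean level above 4 over both libraries, a limit set with the values in view, had 11 negative log2 ratios and a median of -0.39, whereas 45.5% of all 7997 genes above that level had negative ratios and their median was 0.03. Exceptions among the 14 were MYB3, MYB59 and AT2G44730. The 38 members at or below that level had 18 negative ratios and a median of 0.02. Of the 10513 genes at or below it that reached an FPKM of 1, 44.9% had negative ratios and their median was 0.05. The 38 include MYB42 and MYB36, which did not reach that FPKM. The 4 genes of the MYB44 group, already described above, are among the 11 with negative ratios, and the limit was not varied. Membership also depends on the uncertain chromosome 3 levels. After the exon length rescaling, MYB109, with a negative ratio, stood at 2.22 in Col-0 and 2.02 in bts-1 and would leave the set. AT3G24490, with a positive ratio, stood at 4.02 and 4.24 and would enter it.

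The 12 listed MYB genes outside the description rule had no member past 1.5-fold in either direction, with 10 negative ratios and a median of -0.10. Of all genes that reached an FPKM of 1, 9.32% were at least 1.5-fold lower and 7.53% at least 1.5-fold higher. Their share of negative ratios was 45.1% and their median 0.04. With 12 genes, the lack of any past 1.5-fold cannot be set apart from those shares. The lowest of the 12 was MYB96 at -0.39 and the highest MYBL2 at 0.39. AS1 (AT2G37630), a regulator of leaf polarity, stood at 5.20 in Col-0 and 5.12 in bts-1, GL1 (AT3G27920, listed as MYB0), the trichome initiation factor, at 1.55 and 1.30, and FLP (AT1G14350), the partner of MYB88, at 3.55 and 3.33. The trichome marker GL2 (AT1G79840) was at 3.13 and 3.18, while TRY (AT5G53200), a small MYB-type inhibitor of trichome formation, stood at 2.97 and 1.71.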
